A study of Mus musculus with 9 samples.

Results

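The gene response of mouse hepatoma cells to FICZ was measured by RNA sequencing of total RNA. The comparison rests on 6 of the 9 libraries of the study, chosen by their labels: 3 control libraries and 3 libraries of cells given 10 nM FICZ, all of the 6 h time point. The other 3 libraries, of cells given 50 uM tryptamine for 6 h, entered the fits to estimate the spread between libraries. The labels call the cells Hepa 1 WT as the source and HC1C as the cell line, and they call the controls untreated while the protocol names a vehicle control. Nothing in the labels says that the libraries of a group were separate cultures, so the p-values measure only the spread between these libraries, which may be technical. Of the 17767 genes with a count in some library, 11985 were tested with all 9 libraries and 12150 without control replicate 3.

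FICZ forms from tryptophan under light and is a ligand of the aryl hydrocarbon receptor, AhR. In the absence of a ligand the receptor sits in the cytoplasm with chaperones. Once a ligand binds, it enters the nucleus, pairs with its partner Arnt and binds DNA at a short core, GCGTG, near genes such as those of the Cyp1 family. In liver cells it is best known for inducing enzymes that oxidise and conjugate foreign compounds. Those enzymes also degrade FICZ, and the genes Ahrr and Tiparp encode proteins that dampen the receptor.

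A gene is said to have risen or fallen where its adjusted p was under 0.05 in edgeR's quasi-likelihood test with Benjamini-Hochberg adjustment over all genes tested. With all 9 libraries, 14 of 11985 genes rose (0.117%) and 0 fell (0%). Before adjustment, 430 higher and 555 lower genes had a p under 0.05 in that test, and the DESeq2 Wald test called 45 higher and 9 lower. Without control replicate 3, 72 of 12150 genes rose (0.593%) and 29 fell (0.239%), and all 14 genes of the larger fit were among the 72. Most changes were small: 15 of the 72 genes that rose had a log2 fold change of at least 1 and 32 had one under 0.5, with a median of 0.57. Over all genes tested the median log2 fold change was -0.0073 with 9 libraries and 0.0003 with 8.

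**Figure D1:**
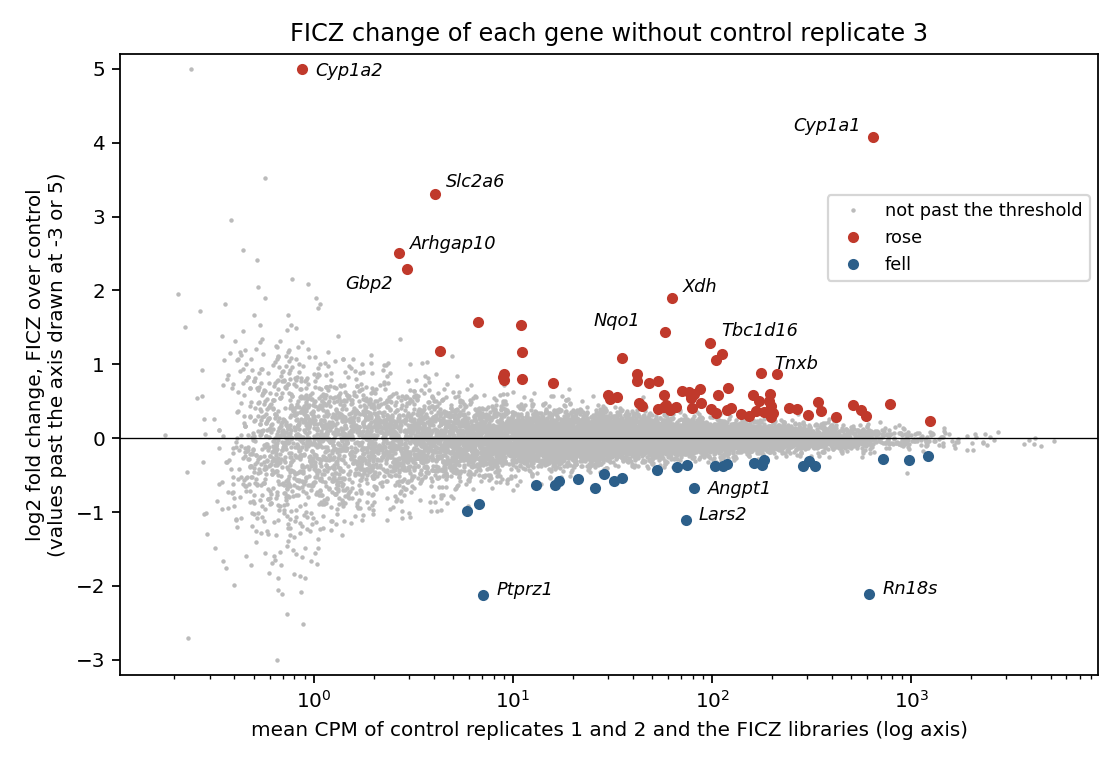
Log2 fold change of FICZ over control (vertical axis) against the mean counts scaled to library size (CPM) of the 5 libraries (horizontal log axis) for each gene tested without control replicate 3. The 72 genes that rose are red, the 29 that fell are blue, and values past the axis, Cyp1a2 among them, are drawn at its edge.

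Control replicate 3 departed from the other libraries by transcript length, and the median FICZ change of the length classes moved with it. Its total over genes, 11238764 counts, was the lowest of the 6 libraries, which reached 16245638. With 9 libraries the median log2 fold change of FICZ over control was -0.26 in the 1086 genes with transcripts of up to 1000 nt, and 0.23 in the 1296 genes with transcripts over 6000 nt. Without control replicate 3 these medians were -0.017 and 0.017. In that library the short genes stood above the mean of the other controls by a median log2 difference of 0.61, and the longest stood 0.83 below it (a log2 difference of -0.83). The square root of the common dispersion, a measure of the spread between libraries of a group, was 0.156 with the library and 0.0747 without it. Counts of genes are therefore given with and without it. In these 2 fits, a named gene outside the 14 that is said to have risen or fallen passed without control replicate 3 and did not pass with it.

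**Figure D2:**
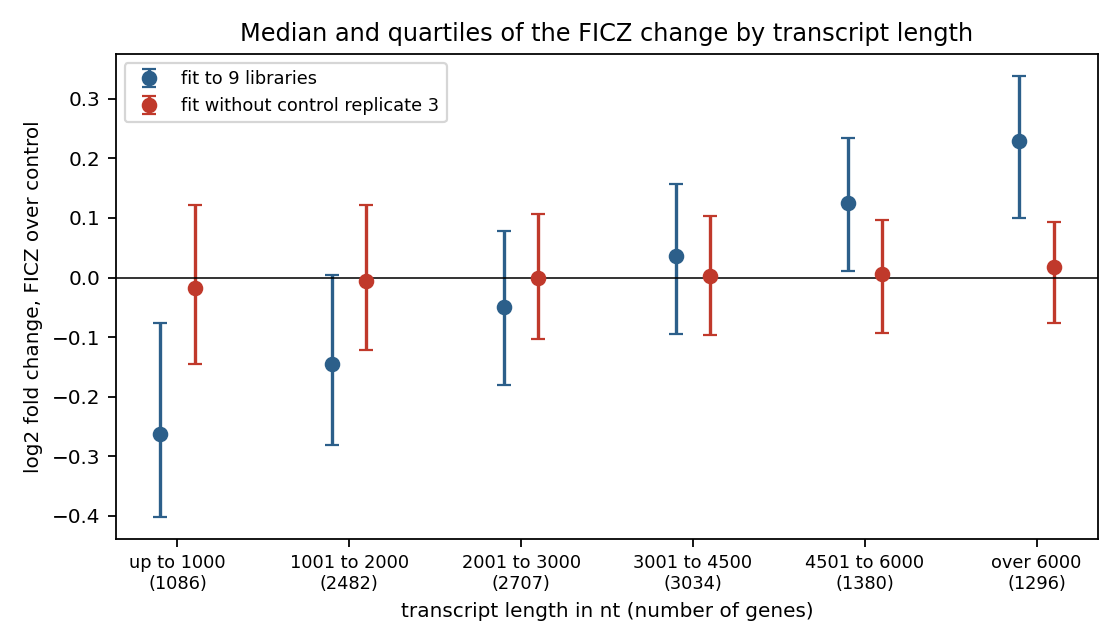
Median log2 fold change of FICZ over control (vertical axis, bars span the quartiles) in 6 classes of transcript length in nt (horizontal axis, number of genes in parentheses). The medians climb from -0.26 to 0.23 with all 9 libraries (blue) and stay between -0.017 and 0.017 without control replicate 3 (red).

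The known targets of the receptor were the list in which every measured member passed without control replicate 3. Of 13 genes on the AhR target list 10 were measured. With 9 libraries 6 of these rose, where 0.117% of all genes did. Without control replicate 3 all 10 rose, where 0.593% of all genes did. Their median log2 fold change was 1.13 with 9 libraries and 1.25 with 8, also when Cyp1a2 was set to its lower bound. The list and its direction are textbook knowledge, and the list was chosen with earlier results of these data known.

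Cyp1a1 encodes the monooxygenase that is the standard readout of the receptor. It stood at 65.7, 57.0 and 60.3 CPM in control replicates 1, 2 and 3 and at 1051, 1067 and 978 CPM in the FICZ libraries. All FICZ libraries lay far above all controls, and control replicate 3 lay between the other controls. The fold change was 16.9 (log2 4.08, 95% interval 3.86 to 4.30, adjusted p = 4.56e-09 with edgeR), and the log2 value was 4.07 without control replicate 3. Cyp1a1 passed the test in each alternative run, including each fit that left out 1 library.

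Cyp1a2, the neighbouring monooxygenase and a major enzyme of normal liver, was close to silent in the controls. It had 0, 0 and 1 counts in control replicates 1, 2 and 3, and 63 counts in all in the FICZ libraries, at 2.34, 1.23 and 0.773 CPM. Each FICZ library therefore held more than any control. Against all 3 controls the ratio of summed counts, scaled to library totals, was 56.5 with a counting interval of 9.79 to 2270, and against controls 1 and 2 it was at least 13.5-fold higher, with a floor of 3 counts over that group. The adjusted p was 0.115 with 9 libraries and 0.00552 with 8 (edgeR).

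Cyp1b1, the monooxygenase of the family that is found mostly outside the liver, was measured at 5.15, 5.10 and 3.0 CPM in the controls and at 15.6, 14.8 and 14.3 CPM with FICZ. The groups were well apart, and control replicate 3 was the lowest of the 6 libraries. The fold change was 3.34 with all libraries (log2 1.74, SE 0.23, adjusted p = 0.0209, edgeR) and 2.91 without control replicate 3.

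Tiparp, an enzyme that ADP-ribosylates the receptor and limits its activity, stood at 33.4, 34.8 and 35.0 CPM in the controls against 53.9, 56.3 and 61.7 CPM with FICZ. The 3 controls were close together and every FICZ library was above them. Its log2 fold change was 0.74 with 9 libraries (SE 0.11, adjusted p = 0.0396, edgeR) and 0.75 with 8. The repressor gene Ahrr had 1 count in the controls and 0 in the FICZ libraries, too few to compare. The receptor gene Ahr was at 25.2, 26.8 and 18.6 CPM in the controls and 20.6, 19.4 and 23.1 CPM with FICZ, and these groups overlapped (log2 -0.16, adjusted p = 0.663, edgeR). Arnt, the partner of the receptor, had a log2 fold change of 0.17 with an adjusted p of 0.638 in the same test. Of the 12 measured genes for the receptor complex and its cofactors, 0 rose and 0 fell in either fit, with a median log2 fold change of 0.13 with 9 libraries and 0.015 with 8.

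The letters GCGTG are the core that the receptor pair binds, and the windows before the start of 3 target genes and of Slc2a6, a further gene of the 14, are printed here because these genes rose and their windows hold the core. Each is the 250 bases before the gene start from RefSeq, build GRCm38.p6, written 5′ to 3′ on the strand of the gene, with the core or its reverse complement CACGC in capitals. The Cyp1a1 window is chr9:57697363-57697612 (plus strand), Cyp1b1 chr17:79715062-79715311 (minus strand), Tiparp chr3:65528197-65528446 (plus strand) and Slc2a6 chr2:27027999-27028248 (minus strand).
Cyp1a1: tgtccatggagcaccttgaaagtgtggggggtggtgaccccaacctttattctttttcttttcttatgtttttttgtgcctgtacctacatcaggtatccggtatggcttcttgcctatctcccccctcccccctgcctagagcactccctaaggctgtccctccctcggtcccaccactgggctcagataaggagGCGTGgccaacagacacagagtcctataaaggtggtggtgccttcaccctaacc
Cyp1b1: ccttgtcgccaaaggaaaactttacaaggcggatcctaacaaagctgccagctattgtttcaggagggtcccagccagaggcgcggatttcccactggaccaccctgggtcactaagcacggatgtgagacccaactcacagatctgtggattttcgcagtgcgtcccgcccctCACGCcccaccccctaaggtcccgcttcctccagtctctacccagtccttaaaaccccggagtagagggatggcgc
Tiparp: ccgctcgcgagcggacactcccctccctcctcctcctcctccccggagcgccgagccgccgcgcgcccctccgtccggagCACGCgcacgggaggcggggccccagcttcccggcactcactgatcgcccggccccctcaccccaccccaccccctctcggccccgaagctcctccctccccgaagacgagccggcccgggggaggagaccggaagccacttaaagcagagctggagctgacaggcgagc
Slc2a6: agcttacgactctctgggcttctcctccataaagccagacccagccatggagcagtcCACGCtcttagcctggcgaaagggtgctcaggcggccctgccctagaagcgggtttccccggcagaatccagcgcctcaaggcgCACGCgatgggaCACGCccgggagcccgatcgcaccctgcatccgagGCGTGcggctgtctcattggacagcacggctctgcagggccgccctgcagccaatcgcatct

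The core begins 54 bases before the start in Cyp1a1, 76 in Cyp1b1 and 170 in Tiparp, while Slc2a6 holds 4 copies, at 193, 109, 97 and 62 bases. Such a short core is common: on either strand GCGTG was found in 50.5% of the 8913 tested genes with a window. It was in 6 of the 10 windows (60%) of the genes that rose with 9 libraries, in 26 of 51 (51.0%) of those that rose without control replicate 3, and in 9 of 23 (39.1%) of those that fell. The longer form TNGCGTG, which contains the core, was in 8.03% of all windows. It was in 6 of 51 (11.8%) of the genes that rose without control replicate 3. It was also in 1 of 10 (10%) of those that rose with 9 libraries, and in 2 of 23 (8.7%) of the fallen genes. Of the windows printed, Slc2a6 holds it, in the copy at 109 bases, and Cyp1a1, Cyp1b1 and Tiparp do not. A match is a description of letters and not a site of binding, and bases further from the gene start were not searched.

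The remaining measured targets are enzymes of xenobiotic metabolism and the regulator Nfe2l2. Nqo1, a quinone reductase that AhR and NRF2 both induce, was at 34.2, 23.1 and 36.7 CPM in the controls and at 78.7, 79.6 and 73.8 CPM with FICZ. Its groups were apart, with control replicate 2 the lowest library (log2 1.31, SE 0.18, adjusted p = 0.0209, edgeR; 1.43 with 8 libraries). Cyp2s1, an extrahepatic monooxygenase, stood at 29.0, 26.9 and 23.2 CPM in the controls and at 53.6, 46.5 and 52.7 CPM with FICZ, without overlap (log2 0.95, adjusted p = 0.0220, edgeR; 0.87 with 8 libraries). Xdh encodes xanthine dehydrogenase, which makes uric acid and can produce superoxide. It was at 25.1, 22.7 and 11.4 CPM in the controls and at 97.3, 84.6 and 84.7 CPM with FICZ. Control replicate 3 was the lowest, and the fold change was 4.48 with it and 3.72 without it (adjusted p = 0.00479 and 8.80e-12, edgeR).

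Between the fits to 9 and to 8 libraries, 4 targets passed in the second alone, and for each all FICZ libraries lay above all 3 controls. Cyp1a2 is among them, as described above. Aldh3a1, an aldehyde dehydrogenase, stood at 67.4, 59.0 and 90.6 CPM in the controls and at 132, 137 and 126 CPM with FICZ. Its highest control was control replicate 3, and its log2 fold change was 0.87 with that library (adjusted p = 0.0628) and 1.06 without it (adjusted p = 8.12e-09, edgeR). Ugt1a2, a glucuronosyltransferase whose locus shares exons among the Ugt1a genes so that its reads cannot be assigned with certainty, had a log2 fold change of 0.87 without control replicate 3 (adjusted p = 0.0230) and 0.81 with it (adjusted p = 0.198, edgeR). Nfe2l2, which encodes NRF2, the transcription factor of the response to oxidants and electrophiles, was at 233, 216 and 211 CPM in the controls and at 296, 300.2 and 292 CPM with FICZ. That narrow rise was a log2 fold change of 0.40 (SE 0.06, adjusted p = 0.000457 with 8 libraries, 0.125 with 9, edgeR). Nfe2l2 is named after its values were seen, as are the other genes marked so in the account of methods.

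**Figure D3:**
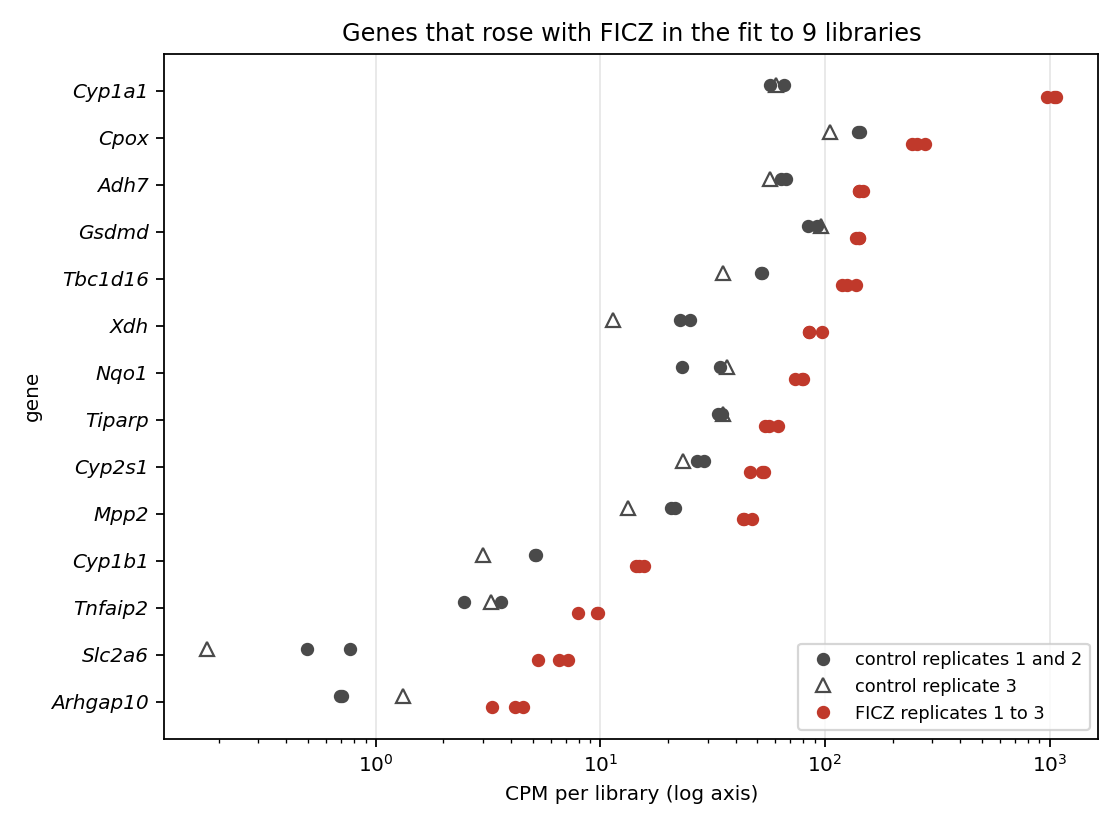
CPM of each control and FICZ library (horizontal log axis) for the 14 genes that rose with all 9 libraries (vertical axis). Every FICZ library (red) lies to the right of every control (black), control replicate 3 (open triangle) included; CPM is not per length, so levels are read along a gene and not between genes.

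The lists of drug-metabolising enzymes share Cyp2s1 and Ugt1a2 with the target list, and without control replicate 3 each held 2 genes that rose, where 0.593% of all genes did. Of 13 measured P450 genes outside the Cyp1 family, Cyp2s1 rose in both fits and Por rose without control replicate 3. Por, the reductase that passes electrons to P450 enzymes, was at 150, 159.6 and 134 CPM in the controls and at 225, 231 and 204 CPM with FICZ (log2 0.51, adjusted p = 0.000234 with 8 libraries, 0.0973 with 9, edgeR). Its groups did not overlap in either set of libraries. Of 19 conjugating enzymes, Gsta4 and Ugt1a2 rose without control replicate 3. Gsta4, a glutathione transferase for lipid aldehydes, was at 29.1, 46.1 and 56.0 CPM in the controls, a wide range, and at 61.3, 62.7 and 69.1 CPM with FICZ (log2 0.78, adjusted p = 0.00279 with 8 libraries, 0.600 with 9, edgeR). Of 18 NRF2 target genes, only Nqo1 passed in either fit, and the median log2 fold change of the list was 0.07 with 9 libraries and 0.15 with 8. Gclc, the catalytic subunit of the enzyme that starts glutathione synthesis, had a log2 fold change of 0.28 with 8 libraries and did not pass (adjusted p = 0.120, edgeR).

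Adh7, an alcohol dehydrogenase active on retinol, was one of the steadiest risen genes. It stood at 67.0, 63.7 and 56.7 CPM in the controls and at 147, 142 and 142 CPM with FICZ. Neither group spread by much and the groups were well apart. The log2 fold change was 1.20 (95% interval 0.99 to 1.42, adjusted p = 0.000582, edgeR) with 9 libraries and 1.14 with 8. Adh7 and Aldh3a1 were the 2 of 17 measured alcohol and aldehyde dehydrogenases that passed without control replicate 3, and the list median was -0.14. In that fit 0.593% of all genes rose, a share that also stands beside the next list. Sod3, the secreted superoxide dismutase, was at 5.01, 7.72 and 7.33 CPM in the controls and at 15.7, 13.2 and 14 CPM with FICZ. These groups did not overlap, and the log2 fold change was 1.10 with 9 libraries (adjusted p = 0.0628) and 1.17 with 8 (adjusted p = 0.000800, edgeR). Xdh and Sod3 were the 2 of 14 measured molybdoenzyme and superoxide genes that rose without control replicate 3. With 9 libraries Xdh alone of that list rose.

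The heme pathway, which makes the cofactor of P450 enzymes, held a gene that rose and a gene that fell among 12 measured members. Without control replicate 3, 0.593% of all genes rose and 0.239% fell. Cpox, the coproporphyrinogen oxidase, was at 139.6, 144 and 106 CPM in the controls and at 277, 244 and 257 CPM with FICZ (log2 1.00, SE 0.12, adjusted p = 0.0128, edgeR). All FICZ libraries were above all controls, and the log2 value was 0.87 without control replicate 3. Alad, the dehydratase of an earlier step, was at 399, 368 and 618 CPM in the controls and at 298, 299 and 286 CPM with FICZ. The FICZ libraries were below every control, of which control replicate 3 was far the highest. The log2 fold change was -0.65 with that library (adjusted p = 0.486) and -0.38 without it (adjusted p = 0.000796, edgeR). The other 10 members did not pass.

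Slc2a6, a member of the facilitative sugar transporter family, had one of the largest rises from a low level. It stood at 0.766, 0.496 and 0.177 CPM in the controls and at 7.17, 6.57 and 5.27 CPM with FICZ. Every FICZ library was several times above the highest control. The fold change was 12.6 with 9 libraries (log2 3.65, SE 0.51, adjusted p = 0.0220, edgeR) and 9.91 with 8. The other 5 measured sugar transporters did not pass in either fit. Gm16460 and Bbs5 were the remaining genes among the 20 largest rises without control replicate 3, with log2 fold changes of 1.19 and 0.83 and adjusted p-values of 0.0338 and 0.0260 (edgeR). Bbs5 encodes a subunit of the complex that sorts proteins to cilia.

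The next genes act on small GTPases, membranes and the matrix. Tbc1d16, a GTPase-activating protein for Rab proteins, was at 52.2, 51.8 and 35.2 CPM in the controls and at 126, 138 and 119 CPM with FICZ. Control replicate 3 was the lowest library, and the log2 fold change was 1.45 with it (adjusted p = 0.00449) and 1.29 without it (adjusted p = 4.28e-10, edgeR). Arhgap10, a further GTPase-activating protein, was at 0.696, 0.708 and 1.33 CPM in the controls and at 4.17, 4.54 and 3.31 CPM with FICZ. Here control replicate 3 was the highest control, and the log2 fold change was 2.16 with it and 2.50 without it (adjusted p = 0.0433 and 0.000457, edgeR). Mpp2, a membrane-associated scaffold of the guanylate kinase family, was at 20.6, 21.6 and 13.3 CPM in the controls and at 43.6, 47.3 and 43.2 CPM with FICZ, again without overlap (log2 1.27, adjusted p = 0.0209, edgeR; 1.08 with 8 libraries). Tnxb, which encodes the matrix protein tenascin-X and has a transcript of 12345 nt, was lowest in control replicate 3. It was at 116, 119 and 40.7 CPM in the controls and at 212, 214 and 222 CPM with FICZ. The adjusted p was 0.428 with control replicate 3, at a log2 fold change of 1.23, and 6.69e-08 without it, at 0.88 (edgeR).

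Without control replicate 3, 2 genes of the inflammation list and 1 of the interferon list rose, where 0.593% of all genes did. Tnfaip2, a TNF-induced gene, was at 3.62, 2.48 and 3.27 CPM in the controls and at 9.80, 9.64 and 7.95 CPM with FICZ, with the groups well apart (log2 1.55, SE 0.23, adjusted p = 0.0352, edgeR; 1.58 with 8 libraries). Stat3, the transcription factor of the acute phase response, was the other of 16 measured inflammatory genes to rise without control replicate 3, with a log2 fold change of 0.35 (adjusted p = 0.00875, and 0.550 with 9 libraries, edgeR). Gbp2, an interferon-inducible GTPase of a family with similar copies, was at 0.905, 0.849 and 0.971 CPM in the controls and at 3.37, 3.99 and 5.63 CPM with FICZ. All FICZ libraries were above all controls, at an adjusted p of 0.115 with 9 libraries and 0.00700 with 8 (edgeR), and Gbp2 was the only one of 20 interferon and antigen presentation genes to pass. Ddx58, which encodes the RNA sensor RIG-I and is not on that list, was at 59.0, 64.9 and 47.1 CPM in the controls and at 88.8, 93.6 and 99.7 CPM with FICZ (log2 0.60 with 8 libraries, adjusted p = 0.000263, and 0.0973 with 9, edgeR). Gsdmd, the pore-forming protein of pyroptosis, was at 91.8, 84.1 and 96.3 CPM in the controls and at 142, 138 and 142 CPM with FICZ (log2 0.63, adjusted p = 0.0396, edgeR; 0.68 with 8 libraries). It was the only one of 13 measured pyroptosis and cell death genes to pass, in both fits.

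Cebpb, a transcription factor of liver and acute phase genes, gave a direction that turned with control replicate 3. It was at 10.8, 11.7 and 35.5 CPM in the controls and at 19.5, 16.6 and 20.7 CPM with FICZ. The FICZ libraries lay above control replicates 1 and 2 and below control replicate 3. The log2 fold change was -0.02 with 9 libraries (adjusted p = 0.987) and 0.75 with 8 (adjusted p = 0.0200, edgeR).

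Growth factor genes moved both ways without control replicate 3, with Met and Nrg1 higher and Angpt1 lower among 14 measured members. Of all genes, 0.593% rose and 0.239% fell in that fit. Nrg1, a ligand of ErbB receptors, was at 65.4, 63.5 and 42.1 CPM in the controls and at 103, 102 and 100.3 CPM with FICZ (log2 0.66, adjusted p = 2.05e-05 with 8 libraries, 0.0973 with 9, edgeR). Met, the receptor of hepatocyte growth factor, was at 264, 279.8 and 159.6 CPM in the controls and at 374, 369.9 and 406 CPM with FICZ (log2 0.50, adjusted p = 4.56e-05 with 8 libraries, 0.425 with 9, edgeR). Both were highest in the FICZ libraries and lowest in control replicate 3. Angpt1, a ligand of the endothelial receptor Tek, was at 105, 105 and 78.0 CPM in the controls and at 66.4, 62.8 and 68.1 CPM with FICZ. Its FICZ libraries were below all 3 controls, with a log2 fold change of -0.67 without control replicate 3 (95% interval -0.85 to -0.49, adjusted p = 4.24e-05, edgeR) and -0.54 with it (adjusted p = 0.425). Angpt1 was 1 of the 2 fallen genes that passed in every fit that left out a further library.

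Among 16 measured matrix genes, Col3a1 and Tnxb rose and Loxl4 fell without control replicate 3, and 0 passed with it. The shares over all genes without that library were 0.593% higher and 0.239% lower. Loxl4, a lysyl oxidase that crosslinks collagen, was at 341, 347 and 231 CPM in the controls and at 280.2, 278 and 278 CPM with FICZ. The FICZ libraries thus lay between control replicate 3 and the other controls, so the fall (log2 -0.30, adjusted p = 0.00750 with 8 libraries; -0.13 and 0.688 with 9, edgeR) is a fall only against controls 1 and 2. Thbs1, which encodes the matrix protein thrombospondin-1, showed the same order, with 1113, 1060 and 605 CPM in the controls and 886, 896 and 882 CPM with FICZ. Its log2 fold change was -0.29 without control replicate 3 (adjusted p = 0.00220) and -0.06 with it (adjusted p = 0.897, edgeR). Pla2g4a, the cytosolic phospholipase that releases arachidonic acid, was at 54.6, 51.8 and 41.2 CPM in the controls and rose to 78.6, 83.5 and 85.6 CPM (log2 0.64, adjusted p = 0.000123 with 8 libraries, 0.0628 with 9, edgeR).

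The genes that fell without control replicate 3 had a median log2 fold change of -0.44, and control replicate 3 lay above the FICZ libraries in some and below them in others. In 15 of 29 all FICZ libraries lay below all 3 controls, against 7.38% of all genes tested with 9 libraries, while in 11 of 29 control replicate 3 lay below every FICZ library. Of all genes whose FICZ libraries lay below controls 1 and 2, as all 29 do, 52.3% lay below all 3 controls, a share close to that of the 29. Of the 72 risen genes 67 lay above all 3 controls, against 8.24% of all genes and 59.2% of the genes whose FICZ libraries lay above controls 1 and 2. The 29 and the 72 were called on these same libraries, so these counts are descriptions. In every one of 8 fits that left out a further library, 2 of the 29 and 29 of the 72 passed. Of the 14 genes that rose with 9 libraries, 4 passed in every one of 9 fits that left out 1 library. In every one of the 9 other alternative settings, 2 of the 14 passed. Of the 29, Ptprz1, Rn18s and Lars2 had log2 fold changes of -2.13, -2.11 and -1.11, and the other 26 were under 1 in size. Rn18s, the ribosomal RNA of the small subunit, present in many copies, was at 356, 1910 and 344.5 CPM in the controls and at 261, 322 and 205 CPM with FICZ. Lars2, a mitochondrial leucyl-tRNA synthetase, was at 76.3, 141 and 50.9 CPM in the controls and at 44.9, 60.9 and 45.0 CPM with FICZ. In both, and in Ptprz1 at 5.22, 21.3 and 3.27 CPM against 2.56, 4.36 and 2.04 CPM, control replicate 2 was the highest library by far.

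**Figure D4:**
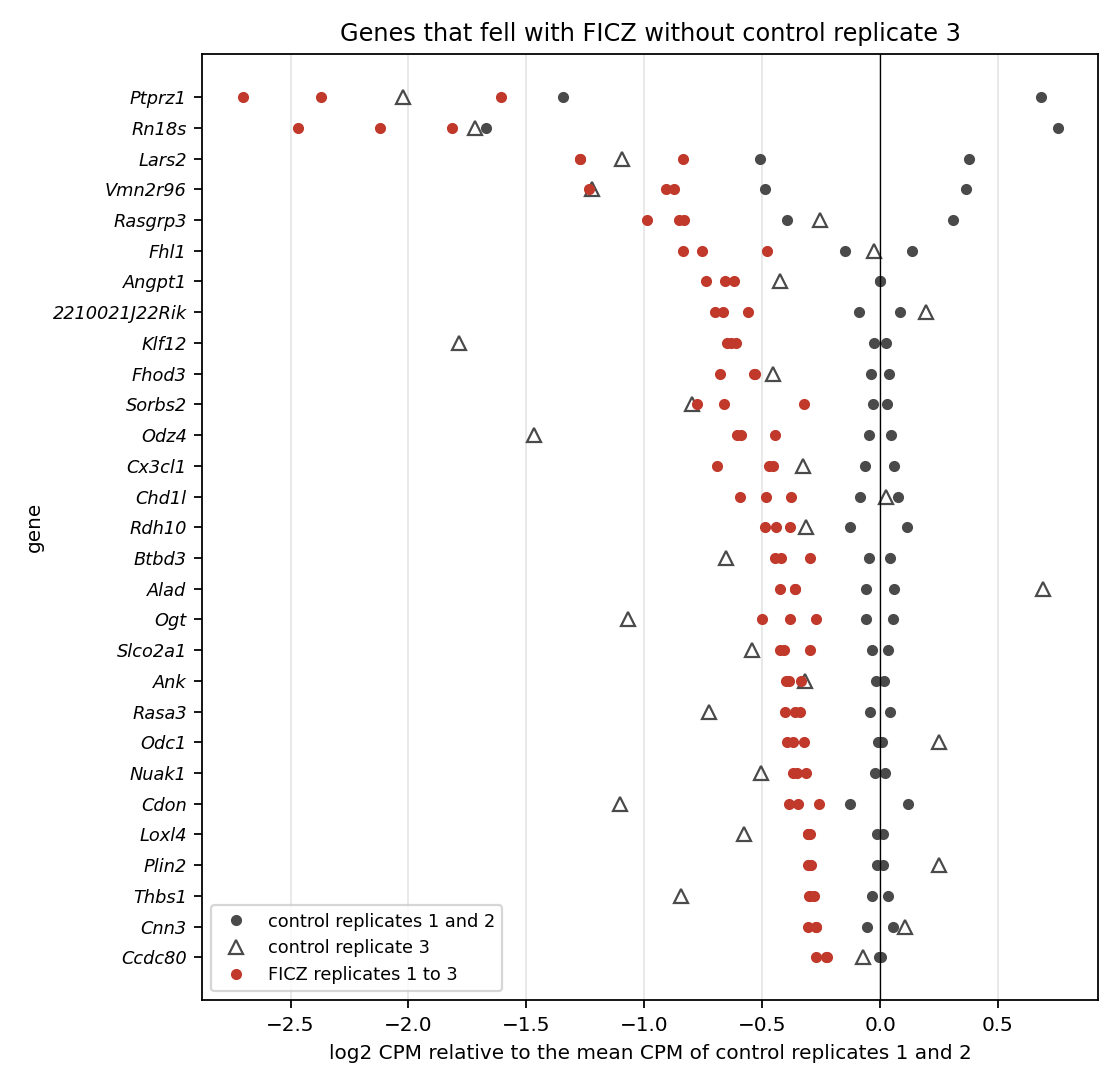
Log2 CPM of each library relative to the mean CPM of control replicates 1 and 2 (horizontal axis) for the 29 genes that fell without control replicate 3 (vertical axis). FICZ libraries (red) lie left of both controls used (black dots), control replicate 3 (open triangle) lies left of every FICZ library in 11 genes, and control replicate 2 is far to the right in the first 3.

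Other falls were moderate. Fhl1, a LIM domain protein of muscle and cytoskeleton, was at 36.8, 30.2 and 32.9 CPM in the controls and at 19.8, 24.0 and 18.8 CPM with FICZ, below all controls (log2 -0.68, adjusted p = 0.00552 with 8 libraries, 0.166 with 9, edgeR). Odc1, the first enzyme of polyamine synthesis, was at 207, 205 and 244 CPM in the controls and at 156.5, 159 and 164.5 CPM with FICZ (log2 -0.36, adjusted p = 0.00277 with 8 libraries, 0.215 with 9, edgeR). Plin2, the coat protein of lipid droplets and the only one of 16 measured fatty acid and lipid genes to pass, was at 207, 203 and 244 CPM in the controls and at 166, 167 and 167 CPM with FICZ (log2 -0.30, adjusted p = 0.0201 with 8 libraries, 0.425 with 9, edgeR). In these 3 genes every FICZ library lay below every control. Cx3cl1, a membrane-bound chemokine, and Rdh10, a retinol dehydrogenase, were also below all controls, with log2 fold changes of -0.54 and -0.44. Klf12, a transcriptional repressor, was at 21.1, 20.3 and 6.01 CPM in the controls and at 13.5, 13.4 and 13.2 CPM with FICZ, so its fall is one against controls 1 and 2 alone. For Rasgrp3, Fhod3, Sorbs2, Odz4, Chd1l, Vmn2r96 (of a receptor family with many similar copies) and 2210021J22Rik the log2 fold changes ran from -0.99 to -0.48 with 8 libraries.

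With 0.593% of all genes higher and 0.239% lower, a count of 0 in a list of this size is near the background. In both fits 0 genes of the lists for cholesterol synthesis (14 measured), the cell cycle (21), the endoplasmic reticulum stress response (18), p53 targets (16), the circadian clock (16), hypoxia and glycolysis (15) and immediate early genes (17) rose or fell. Cholesterol synthesis had the lowest median of these, with a log2 fold change of -0.16 with 9 libraries and -0.15 with 8, and 1 of its 14 members was above 0 with 8 libraries. Dhcr7, which makes cholesterol in the last step of one branch, was at 25.4, 22.2 and 20.4 CPM in the controls and at 17.2, 20.7 and 18.2 CPM with FICZ, so the FICZ libraries lay below controls 1 and 2 and overlapped control replicate 3 (log2 -0.35 with 8 libraries, adjusted p = 0.334, and -0.28 with 9, adjusted p = 0.600, edgeR). Maoa, a monoamine oxidase, was lower in every FICZ library than in every control, at 99.8, 91.8 and 95.2 against 73.5, 74.7 and 88.6 CPM, and did not pass (log2 -0.28, adjusted p = 0.213 with 8 libraries, edgeR).

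Hepatoma markers were present in part. Of 12 hepatocyte and hepatoma markers 8 had a count, and Alb, Afp, Krt8 and Krt18 carried nearly all of it, while Apoa1, Ttr, Trf and Hnf4a had none. Their summed level was 4579 to 6571 CPM in the controls and 4059 to 4212 CPM with FICZ, so all FICZ libraries were lower, and 0 members passed. All sums of markers here are CPM of plain library totals, while the CPM of single genes are scaled to effective library sizes. Krt18 was at 2174, 2177 and 3414 CPM in the controls against 1966, 1927 and 1962 CPM with FICZ (log2 -0.16 with 8 libraries, adjusted p = 0.132, edgeR). Fibroblast markers, mostly Col1a1, summed to 1461 to 1749 CPM in the controls and 1672 to 1790 CPM with FICZ, with Lum at 0. The lowest sum was that of control replicate 3, where Col1a1 was lowest as well. Of 7 fibroblast markers tested, 2 had a log2 fold change above 0 without control replicate 3, with a list median of -0.16. Col3a1 rose in that fit, from 50.5 and 53.7 CPM to 67.5, 67.8 and 69.1 CPM. Dcn was below every control with FICZ, at 388, 369.6 and 438 against 323, 318 and 325 CPM, and did not pass (log2 -0.24, adjusted p = 0.0809 with 8 libraries, edgeR). Bile duct markers, mostly Krt7, summed to 1145 to 1617 CPM in the controls and 1072 to 1120 CPM with FICZ, with Epcam at 0. Blood markers, at 64.7 to 97.4 against 67.9 to 69.7 CPM, and endothelial markers, at 0.979 to 2.09 against 1.09 to 1.47 CPM, overlapped, with Cd3e, Cdh5 and Tek at 0. In RNA from whole cultures, fewer cells of a type and less RNA per cell cannot be told apart, and the part of these markers in the gene changes was not tested. Whether a marker at 0 lacked RNA or was missed by the counting was not tested either.

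The authors' deposited values hold 3121 higher and 4224 lower transcripts at their own adjusted p under 0.05. These lie in 861 and 1213 genes with a gene ID. The authors' deposited table of genes with higher transcripts after FICZ names 81 genes. Of these, 77 were tested with 9 libraries, where 12 rose, and 78 without control replicate 3, where 24 rose and 54 did not pass. The 24 had a median transcript length of 3277.5 nt and a median log2 fold change of 1.15 with 8 libraries. The other 54 had a median length of 5781 nt, against 2892 nt over all genes tested, and their median log2 fold change was 0.42 with control replicate 3 and 0.14 without it. Control replicate 3 was the lowest of the 6 libraries in 47 of the 54 and in 15 of the 24, against 37.5% of all genes tested with 9 libraries. The authors' list was made with that library and the 54 did not pass without it, so this is a description of the choice. The authors' deposited table counts 1 higher transcript for 37 of the 54 genes and for 6 of the 24. The test here used 1 transcript per gene, the one with the highest mean count, which need not be that transcript. The part of this difference in the 54 was not tested.

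Named genes show the difference between these groups. Dst and Syne2, which encode giant proteins that tie the cytoskeleton to other structures, have transcripts of 23285 and 21704 nt. Dst was at 444, 390.5 and 107 CPM in the controls and at 429, 419.5 and 494 CPM with FICZ. Control replicate 3 stood far below the other 5 libraries, which overlapped, and the log2 fold change was 0.51 with it and 0.10 without it. Syne2 (139, 123 and 34.9 against 138, 128 and 155.5 CPM) and the lysosomal trafficking regulator Lyst (38.0, 37.2 and 6.01 against 36.5, 39.7 and 41.7 CPM) showed that same order of libraries. The authors' deposited table gives mean log2 fold changes over transcripts of 1.18, 1.32 and 1.19 for Dst, Syne2 and Lyst, with 3, 6 and 1 regulated transcripts. The values here are of the transcript with the highest mean count of each gene, so the measures are unlike with or without control replicate 3. Cpeb4, an RNA-binding protein of translation, is also on that list and rose without control replicate 3, with 54.6, 60.6 and 26.3 CPM in the controls and 91.2, 84.5 and 90.0 CPM with FICZ (log2 0.62, adjusted p = 9.88e-05 with 8 libraries, 0.488 with 9, edgeR). The list holds 24 of the 72 risen genes and leaves out 48, among them Aldh3a1, Tiparp, Nfe2l2, Por and Met. The lowest mean log2 fold change that the list gives is 1.01, while the calls here had no limit on size. With 9 libraries the log2 fold changes of those named genes were 0.87, 0.74, 0.43, 0.57 and 0.71, in that order.

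**Figure D5:**
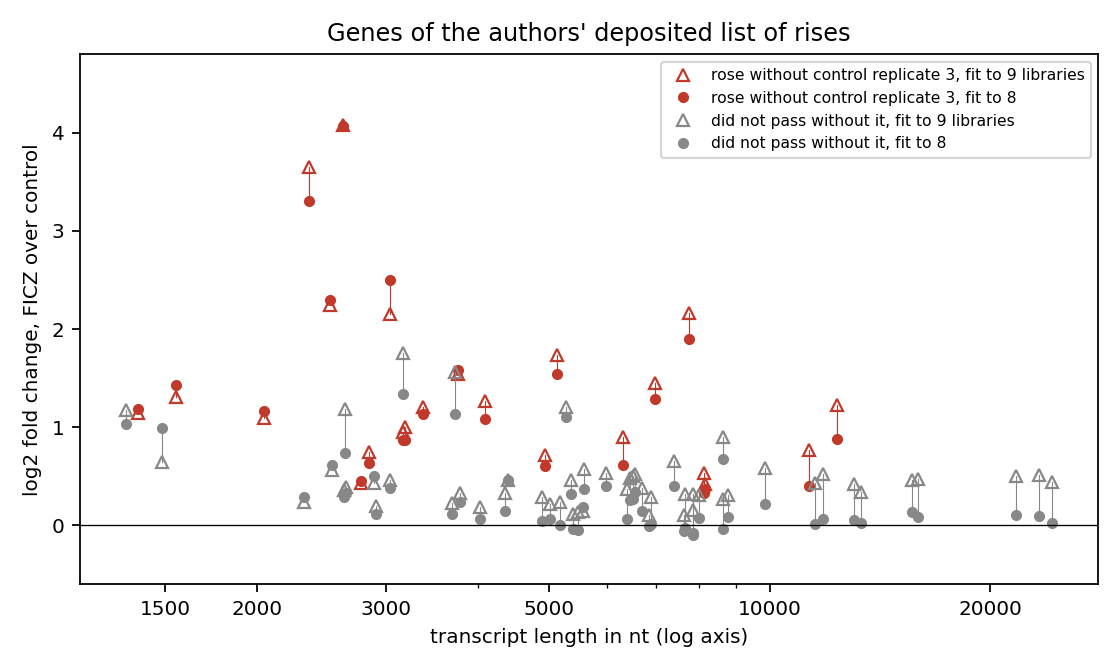
Log2 fold change of FICZ over control (vertical axis) against transcript length in nt (horizontal log axis) for the genes of the authors' list of rises, Cyp1a2 left out; triangles are the fit to 9 libraries, dots the fit without control replicate 3, joined by a line. Red genes rose without control replicate 3, and the grey genes, with a median length of 5781 nt, drop from a median of 0.42 to 0.14.

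Tryptamine was given at 50 uM and FICZ at 10 nM, so the values stand side by side without a comparison. In the tryptamine libraries Cyp1a1 was at 694, 699.5 and 774 CPM, Xdh at 46.7, 41.1 and 41.6 CPM and Adh7 at 101, 97.3 and 105 CPM. Slc2a6 was at 1.82, 0.396 and 0.928 CPM and Gbp2 at 0.630, 1.67 and 0.530 CPM there, which overlaps their control values.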

How the data were processed

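Per the file headers, the deposited tables hold counts of reads per transcript and library, as whole numbers without normalization, with the authors' p-values and log2 fold changes. A further deposited list names genes with higher transcripts. The submitters' processing notes name DESeq; which aligner, strand setting, build or annotation was used is not given in the sources at hand, and reads of overlapping genes cannot be told apart. Transcripts without one gene ID (27781 of 189660, 4.37 to 5.00% of counts) were left out, and the transcript with the highest mean count stood for each of 28250 genes.

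edgeR 4.0.16 (R 4.3.3) was run with TMM scaling, filterByExpr, group as the only term and its quasi-likelihood test, on 9 libraries and on 8 without control replicate 3, with an adjusted p threshold of 0.05. The fits were also run on simulated counts in which 200 genes had a set change. These counts had the spread seen without control replicate 3 and no length trend. They therefore do not cover the fit to 9 libraries as it stands. Of the genes set at a log2 of 1 in size, 91.8% passed with 9 libraries and 85.7% with 8. False calls numbered 6 with 9 libraries and 18 with 8. CPM were scaled to effective library sizes, except for the sums of markers, which used plain library totals. SE is the log2 fold change over the square root of F. Alternatives used DESeq2 1.42.0, limma 3.58.1 (voom with sample quality weights), no filter, a filter of 10 counts, only the libraries compared, a replicate block, sums over transcripts, a length trend taken out (loess, span 0.3) and each library left out. The interval of a count ratio (95%) covers counting error alone, because these reads carry no molecular identifiers.

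The comparison, the gene lists, the tests and the rules were chosen with earlier results of these data known. Named genes are those that passed with 9 libraries; among those that passed with 8, the 20 rises and 15 falls of largest size whose higher group averaged 20 counts or more and whose FICZ libraries did not overlap controls 1 and 2; Cyp1a1, Cyp1a2, Cyp1b1, Ahrr, Tiparp, Nqo1, Aldh3a1, Ahr and Arnt; and, from each list, the 2 members of smallest p. Nfe2l2, Ddx58, Met, Pla2g4a, Cebpb, Thbs1, Odc1, Dst, Syne2, Lyst, Cpeb4 and all genes of the section on other observations were named after their values were seen.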

Additional observations from a re-analysis of the deposited data

Results flagged for a closer look

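Outside the gene tests, 4 transcripts without a gene ID had a log2 fold change of at least 1 in the authors' deposited table, with an adjusted p under 0.05 there and at least 60 counts in the 6 libraries. They stand here because no gene comparison used them and their counts with FICZ were above the level in the controls. The transcript of 3683 nt had an authors' log2 fold change of 1.64, with 69, 62 and 7 counts in the controls and 135, 199 and 124 with FICZ. The transcript of 4611 nt was at 1.08, with 98, 141 and 60 counts in the controls and 234, 257 and 213 with FICZ. The transcript of 1847 nt was at 1.45, with 25, 13 and 6 against 38, 43 and 49 counts, and that of 1750 nt at 1.01, with 83, 67 and 3 against 88, 117 and 115 counts. In all 4 control replicate 3 was the lowest library, and the part of that library in these values was not tested.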

How the results depend on the processing

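With 9 libraries, 14 genes higher and 0 lower became 45 and 9 with the DESeq2 Wald test, 82 and 39 with limma voom and sample weights, and 47 and 5 with the length trend taken out. The count of higher genes was 26 with no filter, 2 with only the libraries of control and FICZ, 4 with sums over transcripts and 4 with the replicate block, with 0 lower in each. Leaving out 1 library gave 4 to 72 higher and 0 to 29 lower: 72 and 29 without control replicate 3, 5 without control replicate 1, 8 without control replicate 2, 4 without any one of the FICZ replicates, 6 without tryptamine replicate 1 and 7 without tryptamine replicate 3. Without control replicate 3, 72 higher and 29 lower became 133 and 71 with the replicate block and 41 and 14 with sums. The lower genes were 70 with limma voom, 59 with no filter and 50 with only control and FICZ. Leaving out a further library gave 34 to 101 higher and 5 to 52 lower. Those lowest values came without control replicate 1, and the falls were 15 without control replicate 2, 17 without FICZ replicate 1, 17 without FICZ replicate 2, 44 without tryptamine replicate 2 and 52 without tryptamine replicate 3. Voom with all 9 libraries gave control replicate 3 a weight of 0.0752, so it is close to a fit without it by construction; it shared 68 of the 72 rises (94.4%, and 82.9% of its own 82) and 24 of the 29 falls (82.8%, and 61.5% of its own 39). The cause of these shifts was not tested.

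Equal replicate numbers of control and FICZ are not said to mark a shared culture or day, so the numbers were not read as pairs. The deviations from the group means had a correlation of -0.057 in each of the 3 pairs of equal number. The departing control replicate 3 entered the control mean, so this value cannot tell whether the numbers mark pairs. Among single genes, the log2 fold change of Cebpb with 9 libraries turned from -0.02 to 0.67 with voom, 0.088 with the replicate block, 0.20 with the length trend taken out, 0.75 without control replicate 3 and 0.071 without FICZ replicate 2, and its lowest value was -0.31 without control replicate 1. Without control replicate 1 the sign turned to 0.0073 for Klf12, 0.093 for Thbs1, 0.032 for Odz4 and 0.093 for Ogt, and without control replicate 2 to 0.050 for Thbs1 and 0.016 for Ogt. Their lowest values, -0.63, -0.29, -0.55 and -0.38, came without control replicate 3. With 8 libraries Arnt ranged from -0.040 without control replicate 2 to 0.15 without control replicate 1. The cause was not tested. With 2 or 3 controls, rises of low genes rest on few counts.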

Other observations

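Among the 72 genes that rose without control replicate 3, several lie outside the lists described above and were picked after their values were seen. Prkca, a protein kinase C, was at 89.2, 75.5 and 59.9 CPM in the controls and at 129, 127 and 116 CPM with FICZ (log2 0.59, adjusted p = 0.000157 with 8 libraries, edgeR). Tnfrsf10b, the mouse death receptor for TRAIL, was at 61.7, 61.3 and 42.7 CPM in the controls and at 87.1, 95.3 and 87.5 CPM with FICZ (log2 0.55, adjusted p = 0.000335, edgeR). Both had all FICZ libraries above all controls and passed whichever of the 8 libraries was left out. Adam10, a protease that sheds membrane proteins, was at 305, 296 and 194 CPM in the controls and at 373, 377 and 408 CPM with FICZ (log2 0.36). Cd109, a membrane protein that limits TGF-beta signalling, had a log2 fold change of 0.47, and the desmosomal proteins Dsp and Ppl had 0.29 and 0.41. Of these, control replicate 3 was the lowest library in each.

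Foxq1, a transcription factor, and Rbp4, the plasma carrier of retinol, rose without control replicate 3 although that library was not the lowest. Foxq1 was at 48.6, 60.8 and 59.3 CPM in the controls and at 73.7, 75.7 and 70.6 CPM with FICZ (adjusted p = 0.0381, edgeR), and Rbp4 at 33.2, 36.9 and 45.6 CPM against 45.7, 51.3 and 48.7 CPM (adjusted p = 0.0294, edgeR). All FICZ libraries of both lay above all controls, for Rbp4 by a narrow gap. Ogt, which attaches a sugar to nuclear and cytoplasmic proteins, and Slco2a1, a prostaglandin transporter, fell with log2 fold changes of -0.38 each with 8 libraries. In both, control replicate 3 was lower still, at 62.8 CPM for Ogt and 82.0 CPM for Slco2a1, than every FICZ library.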
